A study of Rattus norvegicus with 18 samples.

Results

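Replicating beta cells of old rat islets were compared with quiescent beta cells of the same age in 8 of the 18 libraries of the series, 4 labelled old replicative and 4 labelled old quiescent. The members were taken by their labels alone. Per the labels' protocols, both groups came from islets kept overnight in RPMI1640 (10% FBS, glucose at 11.1 mM) that received EdU at 10 micromolar. Per the series text, each of 9 islet batches came from 2 rats and gave a sample of replicating and a sample of quiescent beta cells, so a library stands for cells pooled over rats. The sources used here do not give age in weeks, strain, sex, the sort gate or how many cells went into a library. The labels name the cell type only as pancreatic islets.

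Beta cells make insulin and divide rarely in adult islets, and their division becomes rarer with age. EdU, a thymidine analogue, is built into newly made DNA and labels a cell whose S phase fell within the exposure. A dividing cell has to copy its DNA, supply nucleotides and histones for the copy, and then build the mitotic spindle, and many of the genes for these steps are nearly silent in a resting cell. Mature beta cells spend much of their RNA on a few secretory products.

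Genes are known here only by Ensembl rat ID. The reference table at hand lists 47357 genes, 0 of them with an Ensembl ID. A symbol was therefore found for 0 of the 27654 IDs in the count table, and no promoter sequence could be tied to a gene. The 45 gene lists drawn up for cell cycle, beta cell and other islet and stromal cell types could not be applied, and the label of beta cells was not checked against markers. In place of pathways, genes are grouped below by their expression level, by how they behaved in each pair of libraries and by their behaviour in young islets, which were measured in other libraries.

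Total counts ran from 4639863 to 10365264 in the quiescent group and from 2975086 to 8639541 in old replicative libraries. Old replicative replicate 3 was both the shallowest and the library that stood apart most. Its log2 ratio to old quiescent replicate 3 had a median of -0.64 over the 12250 genes tested, with quartiles at -3.11 and 0.79. In pairs 1, 2 and 4 the median was -0.07, -0.08 and -0.18, and the lower quartile was -0.84, -1.13 and -1.30. The pair of libraries with number 3 therefore had a longer tail of genes that were low in the replicative member. Some results are also given without it, and the others include it.

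Of the genes that passed the test in old islets, those higher in replicating cells were mostly low at rest, and those lower were mostly abundant. Of 12250 genes tested, 473 passed an edgeR quasi-likelihood test with the replicate number as a block, which is 3.86% of the genes (adjusted p under 0.05). Of these, 342 were higher in replicative cells (2.79%) and 131 were lower (1.07%). With upper-quartile scaling the split was 295 higher and 197 lower. The balance of directions depended on the fit, with 844 higher and 809 lower in DESeq2, 431 and 558 with no filter on low counts, and 700 and 1257 with all 18 libraries and 9 blocks. Log2 fold changes of the higher genes ran from 1.06 to 11.4 with a median of 3.99. Above 5 were 99 of them (28.9%), against 1.12% of all genes tested. The log2 fold changes of the lower genes ran from -9.09 to -0.83 with a median of -1.31. The median over all genes tested was -0.38 with the scaling used and -0.55 with upper-quartile scaling. All 131 lower genes lay below both of these medians, and the 342 higher genes lay above them by definition. Without pair 3 the count was 723 (549 higher and 174 lower), and the median over all genes tested was -0.24. Without pair 1 the count was 223 (35 of them lower) and without pair 2 it was 218 (42 of them lower).

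The 2 directions held genes of different abundance. The higher genes had a median of their group means of 7.90 CPM (library counts scaled to a common total) in quiescent and 113 CPM in replicative libraries, and 64 of the 342 averaged under 1 CPM in quiescent cells. The lower genes had medians of 429 and 179 CPM, and 125 of the 131 averaged over 100 CPM in quiescent cells. In the top abundance class, 537 genes averaging over 8 in log2 CPM, 23 were higher and 78 lower, which is 4.28% and 14.5%. Among the 4693 genes between 4 and 6 the balance was the other way, with 167 higher and 4 lower. Among the 1063 genes at or under 2, 0 were called. In that lowest class the median log2 fold change was -2.42 and the fold differed between pairs by a median SD of 1.81. The SD was 2.44 between 2 and 4, where 9 of 3337 genes were higher and 1 lower, and 0.44 in the most abundant class. A rare gene can pass the filter through the quiescent libraries alone, so the negative median is a description with no test. As folds varied most at low levels, the abundance of the called genes may also depend on where the test could call a gene.

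**Figure D1:**
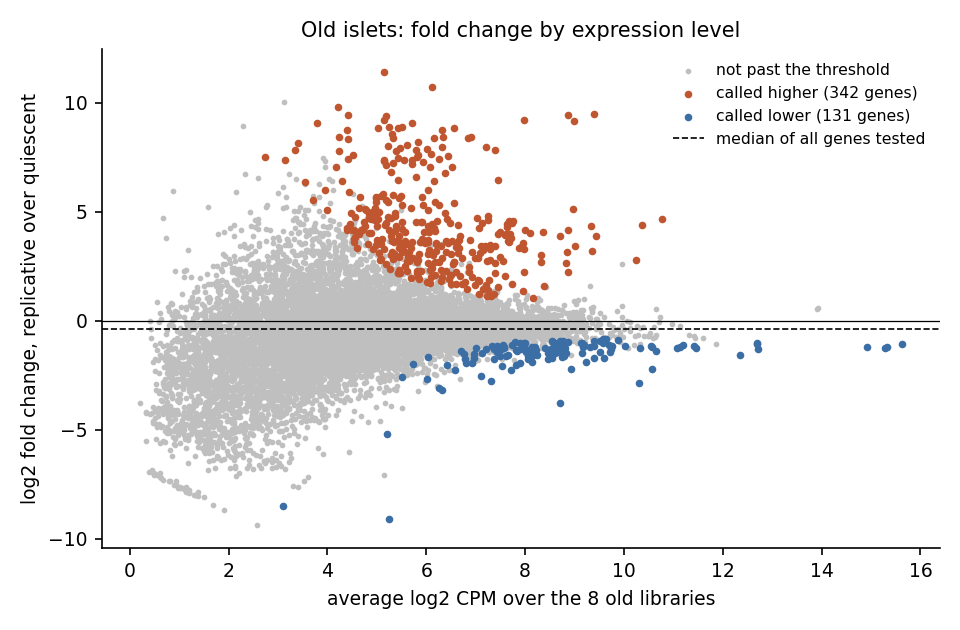
Log2 fold change of replicative over quiescent cells of old islets against the average log2 CPM over the 8 libraries, 1 point per gene. The 342 genes called higher lie mostly at middle levels with folds of up to 11.4 on the log2 scale, and the 131 called lower lie to the right, close to the cloud of genes that did not pass.

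By the rule for named genes, ENSRNOG00000003388 and ENSRNOG00000028137 stand for the higher genes. ENSRNOG00000003388 was at 1.67, 1.63, 2.24 and 1.39 CPM in old quiescent replicates 1 to 4. In old replicative replicates 1 to 4 it was at 1486, 745, 778 and 1074 CPM. It was close to silent in each quiescent library, with 9 to 15 counts, and among the well expressed genes in each replicative one. Its log2 fold change was 9.18 (SE 0.351, edgeR adjusted p = 2.72e-06). In young islets it rose as well, with 11.5 ± 8.75 CPM at rest and 1673 ± 821 CPM in replicative libraries (SD, n = 5 each). The young log2 fold change was 7.46 (edgeR adjusted p = 1.59e-06). The old effect did not differ from the young one past the threshold (difference 1.62, edgeR adjusted p = 0.249).

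ENSRNOG00000028137 was at 1.12, 3.14, 1.99 and 1.39 CPM in the quiescent libraries and at 1222, 1309, 832 and 1980.2 CPM in the replicative ones, in replicate order. The groups were far apart, and the log2 ratio within a pair ran from 8.52 in pair 3 to 10.2 in pair 4. The log2 fold change was 9.48 (SE 0.423, edgeR adjusted p = 4.20e-06).

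Among the genes that fell, ENSRNOG00000007092 was at 1544, 2079, 3592 and 2577 CPM in old quiescent replicates 1 to 4. In the replicative libraries it was at 268, 344, 1086 and 667 CPM. The groups did not overlap, and pairs 1, 2, 4 and 3 followed each other from low to high in both groups. Its log2 fold change was -2.20 (SE 0.218, edgeR adjusted p = 0.000338). In young cells the quiescent level was 477 ± 199 CPM and the replicative level 306 ± 118 CPM (SD, n = 5 each), and the log2 fold change was -0.61 (edgeR adjusted p = 0.0456). The difference between the ages was -1.66 on the log2 scale and passed the test of that difference (edgeR adjusted p = 0.0244), but not without old pair 1 (edgeR adjusted p = 0.0557) or old pair 2 (edgeR adjusted p = 0.1).

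ENSRNOG00000000007 was at 956, 2059.9, 2645 and 3019 CPM in the quiescent libraries and at 143, 145, 350.1 and 734 CPM in the replicative ones. It was lowest in pair 1 in both groups and highest in pair 4 in both. The log2 fold change was -2.88 (SE 0.289, edgeR adjusted p = 0.000369), with pair values from -3.82 to -2.04. It fell in young cells too (log2 fold change -1.41, edgeR adjusted p = 0.000668). The difference between ages did not pass (edgeR adjusted p = 0.111).

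**Figure D2:**
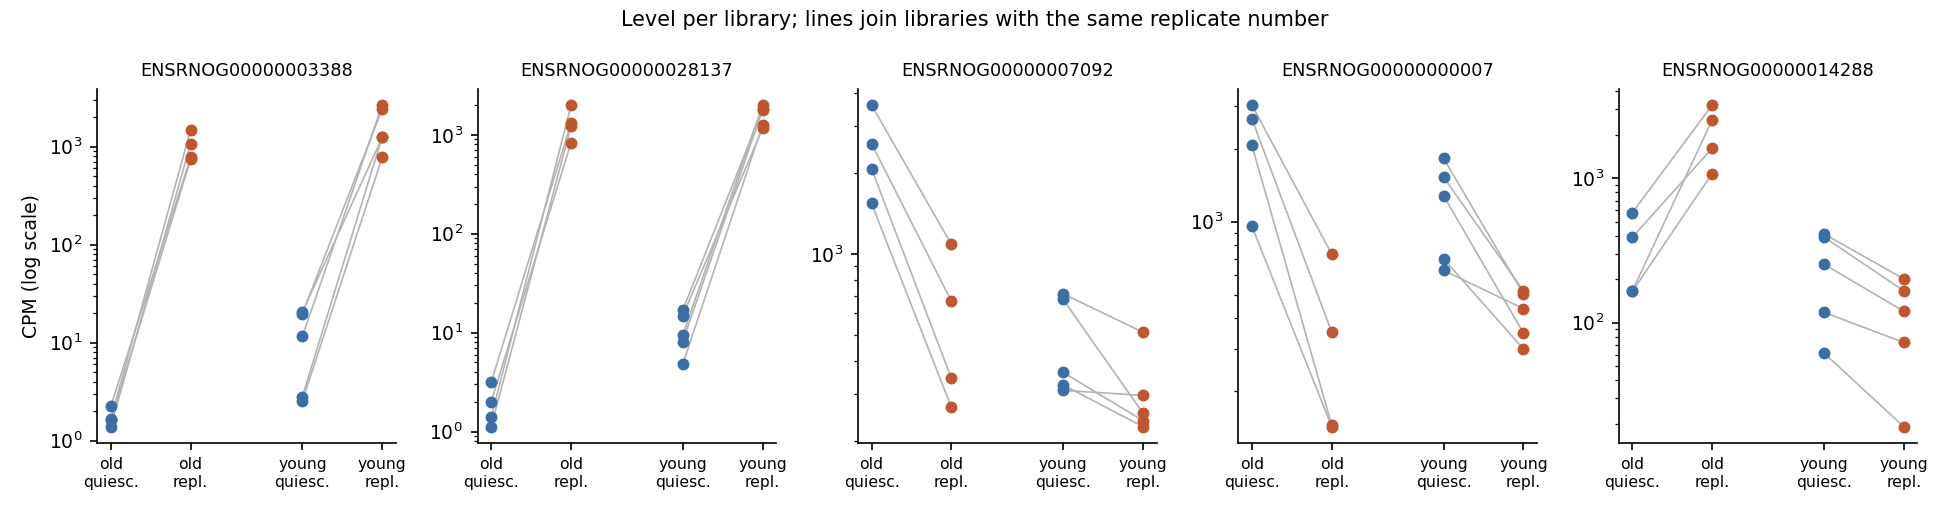
CPM on a log axis in each library for the 4 genes above and for ENSRNOG00000014288, with quiescent libraries in blue, replicative libraries in orange and lines joining libraries of the same age and replicate number. CPM were scaled within each age. The first 2 genes go from under 4 CPM to over 700 CPM in each old pair, and the last gene goes up in the 4 old pairs and down in the 5 young pairs.

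The 4 most abundant transcripts of the old cells together held less of the counts in each replicative library than in any quiescent one. Of the 10 genes with the largest shares over the 8 libraries, 8 fell past the threshold, against 1.07% of all genes tested and 14.5% of the top abundance class. Their log2 fold changes ran from -1.57 to -1.02, and the other two had 0.60 and 0.52 (edgeR adjusted p = 0.423 and 0.474). The 4 most abundant genes together held 18.9%, 20.8%, 21.0% and 21.0% of counts in old quiescent replicates 1 to 4. They held 9.21%, 6.75%, 13.1% and 13.9% in the replicative libraries. The groups did not overlap, but the difference did not pass after adjustment (exact permutation test over libraries, two-sided, p = 0.0286, the smallest it can give, adjusted p = 0.0572 over 2 tests of library values). Exchanging only within pairs gave an exact p of 0.125, the smallest that 4 pairs allow. In bulk libraries fewer cells of a type and less RNA per cell cannot be told apart.

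Some genes went from near 0 at rest to a clear level in replicating cells in every pair. There were 34 genes at 1 CPM or less in every old quiescent library and at 10 CPM or more in every old replicative library. Their median level was 78.4 CPM in old replicative libraries and 0.37 CPM in old quiescent ones, for the 33 also tested in young cells. These old values chose the genes and test nothing. In young libraries, which did not choose them, 31 of the 33 were called higher in replicative cells, where 5.25% of all genes tested were, and their median went from 1.29 CPM in quiescent to 108 CPM in replicative cells. With the limits exchanged, 2 genes were at 10 CPM or more in every quiescent and 1 CPM or less in every replicative library, of which 1 was called. At a limit of 50 CPM the counts were 11 and 0.

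Pairs differed in how alike their replication effects were. Higher in replicative cells in all 4 pairs were 1344 genes (11% of those tested), and lower in all 4 were 2132 (17.4%). Over pairs 1, 2 and 4 alone, without pair 3, the counts were 2264 and 2948. Such counts cannot fall when a pair is dropped, as fewer signs have to match. Only the drop of pair 3 was counted, so the rise is not a trait of that pair. Of the called genes, 338 of 342 higher and 131 of 131 lower ones had the same sign in every pair, as the test favours. Groups did not overlap for 852 genes higher and 1198 lower in replicative cells, 6.96% and 9.78% and in sum 16.7%, and 564 and 1097 of these were not called. Across the 3157 genes averaging over 6 in log2 CPM, log2 ratios of pairs 1 and 2 had a Pearson r of 0.80, and pairs with number 3 had r from 0.51 to 0.56. Over all 12250 genes r ran from 0.24 to 0.51. These values are across genes of pairs that share no library, and genes are not independent replicates.

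The 342 higher genes were split by whether they also passed the threshold in the young libraries. Of the 323 also tested in young cells, 164 (50.8%) were called higher there and 159 were not, and the other 19 were not tested. Of the 159, 136 were above 0 in young cells, where 42.7% of all genes were, and their median young log2 fold change was 0.60. For most of these genes the direction was thus the same at both ages. The size was not, as their median log2 fold change in old cells was 3.55. Choosing them by the old call and the missed young threshold widens that gap. The share called higher among all 11914 genes tested at both ages was 5.25%. In the 164 shared genes the median level over genes was 2.46, 3.03, 1.86 and 1.71 CPM in old quiescent replicates 1 to 4 and 128, 118, 69.2 and 107 CPM in the replicative ones. No pair stood far from the rest in this set. Their median log2 fold change was 5.04 in old and 4.46 in young cells, a pair of values that the calls at both ages chose.

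In the 159 genes not called higher in young cells, pair 2 stood out in both of its libraries. The median level was 10.5, 28.0, 5.46 and 6.09 CPM in old quiescent replicates 1 to 4 and 102, 209, 85.6 and 70 CPM in old replicative replicates 1 to 4. The quiescent and the replicative library of pair 2 were both the highest of their group for 108 of these 159 genes (67.9%). The same held for 22 of the 164 shared genes (13.4%) and for 937 of all 12250 genes tested (7.65%). Summed, the 159 genes took 0.791% of counts in old quiescent replicate 2 and 0.162% to 0.327% in the other quiescent libraries. They took 8.97% in old replicative replicate 2 and 1.92% to 3.85% in the other replicative ones. In young libraries they took 0.152% to 0.267% in quiescent and 0.219% to 0.509% in replicative cells. In each young pair the share was higher in the replicative library, with 0.267% and 0.509% in pair 1 and 0.152% and 0.219% in pair 4. The level of these genes thus moved with the replicate number as well as with replication, and what set pair 2 apart was not tested, since no gene could be matched to a cell type marker.

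The difference between the ages was tested for every gene, with 9 blocks for age and replicate number. It passed for 11 of 14920 genes (0.0737%), 9 with a higher and 2 with a lower effect in old cells, and all 11 were also called in the old comparison. The count and its direction were not stable. It was 2 (2 higher, 0 lower) without old pair 2, 12 (3 and 9) without pair 1, 42 (19 and 23) without pair 3, 29 (12 and 17) without pair 4 and 4 (0 and 4) with no block. Of the 9, 8 were among the 159 genes just described and 1 among the 164. At an unadjusted p under 0.05 the difference held for 143 of the 159 and 36 of the 164 genes, and for 1432 of the 12250 genes tested in old cells. The 159 were chosen partly by missing the young threshold, which widens their difference. As 8 of the 159 passed after adjustment, the others are not shown to respond differently with age. The age difference was fitted with a common spread per gene for both ages. The biological coefficient of variation, the fitted spread over all genes, was 0.81 in the old fit and 0.425 in the young fit. P-values of the age difference thus rest in part on the less variable young libraries.

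**Figure D3:**
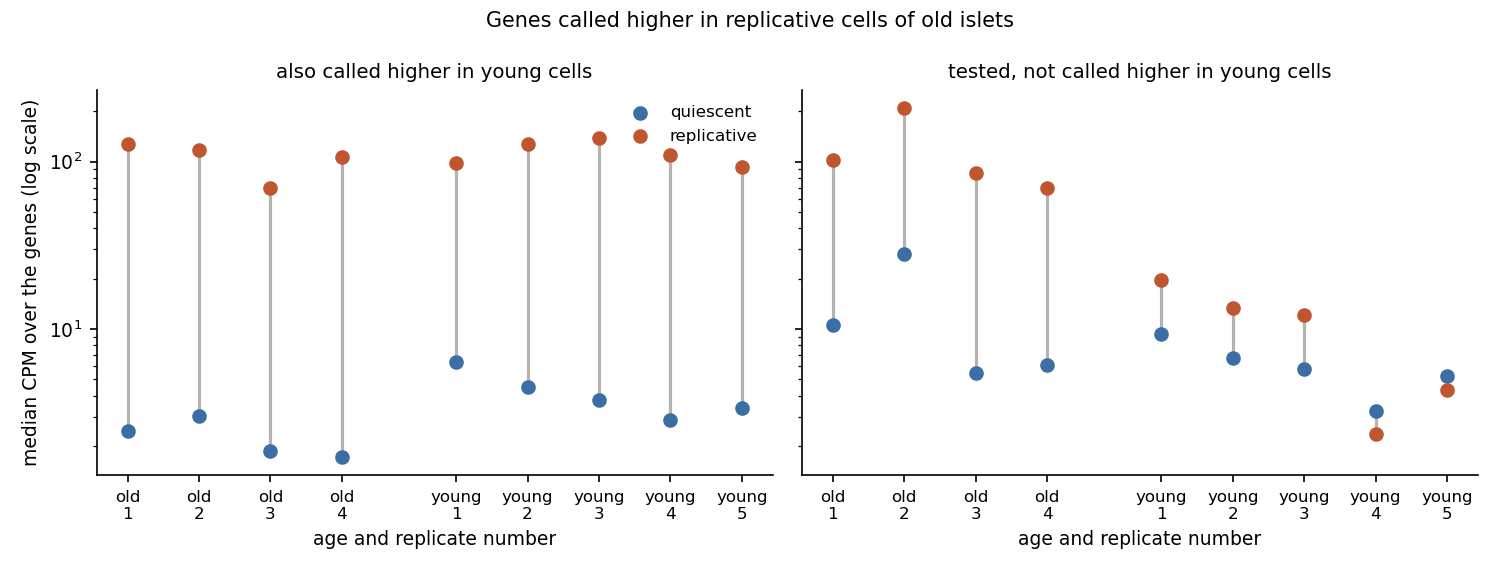
Median CPM, on a log axis, over the 164 genes called higher at both ages (left) and the 159 called higher in old but not in young cells (right), in each quiescent (blue) and replicative (orange) library, by age and replicate number. CPM were scaled within each age. On the left old replicative replicate 3 has the lowest replicative median, at 69.2 CPM. On the right old pair 2 is highest in both colours, at 28.0 and 209 CPM. In young pairs 1 to 3 the right-hand median rises, from 9.32 to 19.7, 6.74 to 13.4 and 5.80 to 12.1 CPM. In young pairs 4 and 5 it falls, from 3.23 to 2.37 and from 5.21 to 4.35 CPM.

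One gene was called in opposite directions at the 2 ages. ENSRNOG00000014288 also had the smallest p of the age difference, and it was singled out after its values were seen. It was at 389.7, 577, 165 and 166 CPM in old quiescent and at 1607, 3201, 1076 and 2519.6 CPM in old replicative replicates 1 to 4. It rose in each old pair, by 2.04 to 3.92 on the log2 scale (fitted value 2.78, SE 0.305, edgeR adjusted p = 0.000624). In young cells it was at 254, 392, 412, 118 and 61.8 CPM in quiescent and 120.1, 166, 201, 73.1 and 19.1 CPM in replicative libraries. It fell in 5 of 5 young pairs (log2 fold change -1.13, edgeR adjusted p = 0.000540). The difference was 3.84 (edgeR adjusted p = 3.00e-05). Its direction held without any single old pair, with differences from 3.47 to 4.08 over all 7 alternatives, but in the fit of 4 group means with no block the difference of 3.74 did not pass (edgeR adjusted p = 0.105).

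Genes chosen in young libraries moved the same way in old pairs, and least so in pair 3. Of 12970 genes tested in young islets, 8.49% were called, 681 higher (5.25%) and 420 lower (3.24%). Of the 626 higher ones also tested in old cells, 551 (88.0%) were above 0 in old cells, where 33.9% of all genes were, and 164 (26.2%) were called higher against 2.71% of all. By pair, 92.7%, 89.0%, 67.4% and 85.9% of the 626 were higher in the replicative member of pairs 1 to 4, against 47.5%, 47.5%, 39.0% and 44.0% of all genes tested. Their median log2 ratio was 1.70, 1.66, 0.89 and 1.46.

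The 420 genes lower in young replicative cells were all tested in old cells, and make up 3.53% of the genes tested at both ages. Of these, 407 (96.9%) were below 0 in old cells, where 66.1% of all genes were, and 90 (21.4%) were called lower, against 1.09% of all. By pair, 92.9%, 94.8%, 82.1% and 86.9% of them were lower in the replicative member, against 52.5%, 52.5%, 60.8% and 55.9% of all genes. Pair 2 had the lowest median of these genes, -1.46, and pair 4 the one nearest to 0, -0.74. The 131 genes called lower in old cells read the same from the other side, since 130 were tested in young cells, 130 of 130 were below 0 there, where 57.3% of all genes were, and 90 (69.2%) were called lower. For the higher genes, 300 of 323 were above 0 in young cells, where 42.7% of all genes were.

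**Figure D4:**
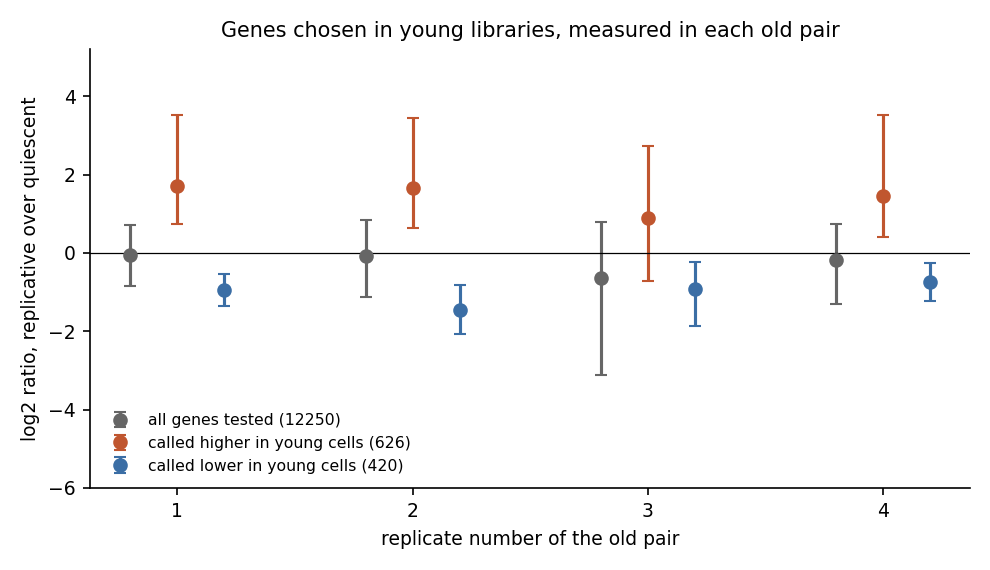
Median (points) and quartiles (bars) of the log2 ratio of replicative over quiescent in each old pair, for all 12250 genes tested (grey), the 626 genes called higher (orange) and the 420 called lower (blue) in young cells. Orange medians lie above and blue medians below grey ones in each of the 4 pairs, and the spread is widest in pair 3.

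Genes without a count were compared between old libraries at equal depth. All 8 libraries were thinned at random to 2975086 counts, the total of the shallowest. At that depth 17111, 16162, 16428 and 15203 genes were detected in old quiescent replicates 1 to 4 and 16792, 14006, 11859 and 12534 in the replicative ones. The replicative member of each pair had fewer, by little in pair 1 and by most in pair 3. The means were 16226 ± 790.5 and 13798 ± 2188 genes (SD, n = 4 each), and the difference did not pass (p = 0.114 before and after adjustment in the two-sided exact permutation test).

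For each pair, reference genes were those with at least 10 thinned counts in the 3 quiescent libraries of the other pairs, 9422 to 9579 genes. Of these, 0.0955%, 0.137%, 0.0628% and 0.292% were at 0 counts in old quiescent replicates 1 to 4. In the replicative libraries of the same pairs 1.60%, 3.74%, 16.8% and 7.22% were at 0. These genes were chosen for being present in quiescent libraries, which favours zeros in the other group, so the values are a description with no test. With the reference taken from the 3 replicative libraries of the other pairs, 6785 to 8389 genes, 0.766%, 0.843%, 1.11% and 1.98% were at 0 in quiescent replicates 1 to 4 and 0.339%, 1.12%, 12.9% and 4.19% in replicative replicates 1 to 4. Read this way pair 1 turned round and the groups overlapped, while replicative replicates 3 and 4 still lacked the most. Of the 9297 genes with 10 or more thinned counts in all 4 quiescent libraries, 1510 were missing from exactly 1 replicative library, 393 from 2, 72 from 3 and 9 from all 4. Of the 6633 genes with 10 or more thinned counts in all 4 replicative libraries, 77 were missing from exactly 1 quiescent library, 31 from 2, 21 from 3 and 4 from all 4. Of the 1510, 1090 were missing from replicate 3 alone, 285 from replicate 4, 101 from replicate 2 and 34 from replicate 1. Most genes missing from a replicative library were thus missing from 1 only. A gene at 0 in a library of this depth may still be expressed below what its counts can show.

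**Figure D5:**
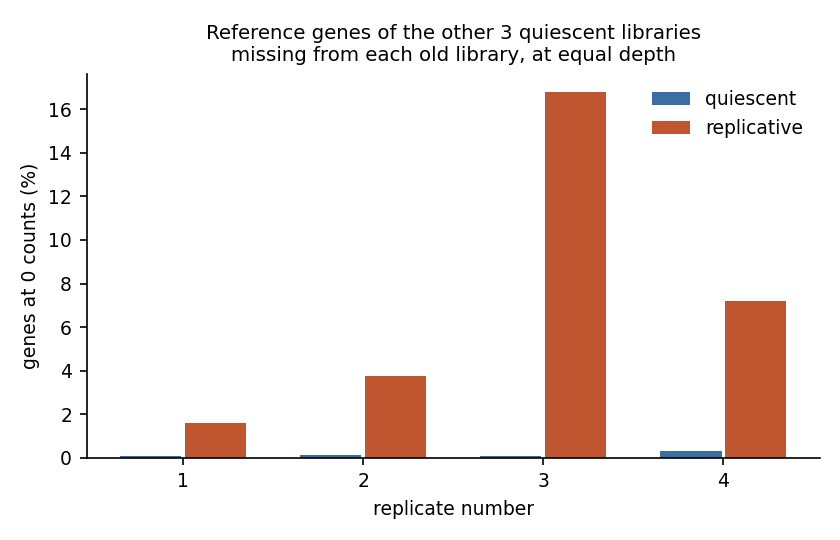
Share of reference genes, chosen as present in the other quiescent libraries, at 0 counts in each old library at equal depth, for quiescent (blue) and replicative (orange) libraries by replicate number. Blue bars are at most 0.292%, and orange bars run from 1.60% in replicate 1 to 16.8% in replicate 3.

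Spread within the groups differed accordingly. The median SD of log2 CPM over the 12250 genes was 0.29 at rest and 1.33 in replicative libraries. For the 342 higher genes it was 0.80 and 0.97, and for the 131 lower genes 0.28 and 0.59.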

How the data were processed

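RNA was sequenced from sorted cells lysed in the buffer of a kit for fixed tissue, and, per the labels' protocols, the library kit keeps strand and takes total RNA. The deposited count table holds whole-number counts per Ensembl rat gene ID with no normalization by the authors. The deposited log2 table holds the log2 of size-factor scaled counts plus 1, as recomputed from the counts (largest difference 5.2e-14). The submitters' processing notes name STAR, DESeq2 and rn6. How reads were counted, on which annotation and with which strand rule is not given in the sources used here. Counts of overlapping genes and near-identical copies are therefore uncertain.

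For the 8 old libraries, filterByExpr of edgeR 4.0.16 (R 4.3.3; minimum count 10, minimum total 15) left 12250 genes and removed 15404. Scaling was by TMM, and the model held the replicate number as a fixed block plus status (3 residual degrees of freedom, robust dispersions). P-values were adjusted by Benjamini-Hochberg across the genes tested and called at 0.05. Standard errors were taken as log2 fold change over root F. Log2 ratios within pairs used a prior count of 2. The young libraries were fitted alone in the same way, and the age difference in all 18 libraries with 9 blocks. Alternatives used limma 3.58.1 and DESeq2 1.42.0, and exact tests SciPy 1.17.1. The script was tested on simulated counts.

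The libraries, lists and comparisons were chosen with earlier results of these data known. The rule for named genes took the 2 smallest p per direction among called genes changed by 1 or more on the log2 scale, an average log2 CPM of at least 4 and the same sign in 4 pairs. Its condition on symbols and its further parts could not be applied without symbols. P-values of fits with a block rest on the spread of the replicative to quiescent difference between pairs. Those of fits without a block rest on the spread between libraries labelled as replicates. In both, the spread of a gene was drawn towards that of other genes. A p-value therefore does not rest on the libraries of that gene alone.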

Additional observations from a re-analysis of the deposited data

Results flagged for a closer look

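The replication effect differed between old and young cells for 11 genes by the test of that difference, edgeR with 9 blocks. This test took the difference of -1.66 for ENSRNOG00000007092 (adjusted p = 0.0244), which stayed past the threshold in 4 of 7 alternatives, and the difference of 3.84 for ENSRNOG00000014288 (adjusted p = 3.00e-05), which stayed past it in 6 of 7.

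Old quiescent replicate 1 lay apart from the rest of its group in the share of counts held by the 4 most abundant genes, at 18.9% against 20.8% to 21.0%. Of 49 such sets of 4 values, 1 was marked, and chance marks about 1 in 20.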

How the results depend on the processing

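The old comparison called 473 genes, 72.3% of them higher. The count was 2053 (52.0% higher) with 4 group means over all 18 libraries, 1957 (35.8% higher) with all 18 libraries and 9 blocks, 989 (43.6% higher) with no filter on low counts, 1653 (51.1% higher) in DESeq2 and 1594 (58.3% higher) in limma-voom with quality weights, and the cause was not tested. In limma-trend on the deposited log2 values it was 707 (55.2% higher). Leaving out pairs gave 218 to 723. Of the 473, 163 were called in all 4 fits that left out a pair and 128 in all 16 alternatives, and 0 were called in the opposite direction in any. The 4 genes named by rule and ENSRNOG00000014288 were called in the old comparison under all 16.

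Without the replicate block 540 genes were called, 341 of them among the 473, and 786 in place of 1101 in young cells. Deviations from group means correlated at 0.0967 to 0.186 between old libraries of the same number and at -0.142 to 0.0432 between others, and 8 of 8 libraries were closest to their own number. The value for number 3, 0.0967, was under the limit of 0.1 used for this check. Centring on group means also tends to lower correlations between other numbers when those of the same number are positive. The pairing is thus only a hint from the data, as no label ties a number to a batch.

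The count of 11 for the age difference was 4 with no replicate block, with 0 higher, 219 in limma-voom, and 2 to 42 when an old pair was left out. The share of the 9297 genes missing from at least 1 replicative library, 21.3%, was 9.62% when replicate 3 was not counted, an alternative chosen after seeing the data. Such a share cannot rise when a library is left out.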
